A study of Mus musculus with 2 samples.

Results

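The guanylate-binding protein (GBP) genes were read in sorted long-term blood stem cells (LT-HSCs) of mice lacking cia-cGAS, a circular RNA, and of wild-type mice. The family was taken as every transcript row whose gene symbol in the files begins with Gbp and a digit. That rule found 11 of the 44170 transcript rows, belonging to 7 of the 24203 named genes. They are Gbp2, Gbp3, Gbp4, Gbp5 and Gbp10, together with Gbp1 and Gbp6 as the files name them, whose gene IDs are called Gbp2b and Gbp7 in RefSeq. The RefSeq symbols are used from here on. A further 5 family genes with 8 rows carry other symbols in the files and were found by gene ID. These are Gbp6 (Mpa2l in the files), Gbp8 (5830443L24Rik), Gbp9 (BC057170), Gbp11 (EG634650) and the pseudogene Gbp2-ps (Gm6243), and they are described separately.

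GBPs are large GTPases of the dynamin superfamily that cells make in response to interferons. They gather on the vacuoles that hold intracellular parasites and on bacteria free in the cytosol, where they help to break the vacuole open and to start inflammasome signalling through caspase-11 and AIM2. In blood stem cells their transcripts are used as a readout of exposure to interferon, which is known to act on these cells directly.

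The study profiled bone marrow cells of C57BL/6 mice aged 8 weeks, sorted as LT-HSCs, on single-colour NimbleGen arrays. One group was the cia-cGAS knockout and the other the cia-cGAS wild type, with 1 array each and no treatment given in the labels. The sources used here give neither the kind of deletion, nor the sort markers, nor any pooling of animals. With 1 array a group, no test between the groups exists, and every difference below has no replicate check. The circular RNA was not analysed here, so the deletion itself could not be checked from these values.

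The deposited value of a row is an RMA intensity, a background-corrected and quantile-normalized summary of 3 probes in every Gbp row. A row was taken as detected above a floor, which was the 95th percentile of that array's 1029 rows for odorant, pheromone and taste receptor genes. The floor was 500.0 in the knockout and 551 in the wild type, or 8.97 and 9.11 on the log2 scale. Where the wild-type value lay under its floor, the knockout value was divided by that floor, which gives a lower bound (at least N-fold). A row under both floors was never counted as past 2-fold. The brightest rows read 15.84 in the knockout and 15.89 in the wild type on the log2 scale. The row of random-sequence control probes read 36.9 on each array. Across all named genes the median log2 difference, knockout minus wild type, was -0.04. Of 14 LT-HSC markers measured, 9 lay above the floor in the knockout and 8 in the wild type. Kit and Ly6a were among the detected ones, whereas Procr, Slamf1, Fgd5 and Hoxb5 lay under both floors.

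The promoters of the chromosome 3 members are shown because these genes lie side by side and did not all differ alike between the arrays. RefSeq windows were matched by gene ID for 5 of the 7 members, Gbp2, Gbp3, Gbp5, Gbp7 and Gbp2b. Each window covers 250 bases before and 50 after a start site in build GRCm38.p6, 5′ to 3′ on the plus strand. Capitals mark matches to GAAA, 2 bases of any kind and GAAA again, a core form of the interferon-stimulated response element bound by the complex that holds STAT2 and IRF9, and to TTCNNNGAA, the gamma-activated site. Both strands were searched, so the first motif also appears as TTTC, 2 bases and TTTC, and the second is its own reverse complement. The windows are chr3:142620413-142620712 for Gbp2, chr3:142559794-142560093 for Gbp3, chr3:142496684-142496983 for Gbp5, chr3:142530086-142530385 for Gbp7 and chr3:142594597-142594896 for Gbp2b.
Gbp2: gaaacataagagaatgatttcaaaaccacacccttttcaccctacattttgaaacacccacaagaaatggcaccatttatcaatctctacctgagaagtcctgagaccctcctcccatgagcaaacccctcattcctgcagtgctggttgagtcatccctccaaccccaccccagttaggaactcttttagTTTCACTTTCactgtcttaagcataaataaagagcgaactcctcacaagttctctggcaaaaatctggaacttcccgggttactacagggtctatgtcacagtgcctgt
Gbp3: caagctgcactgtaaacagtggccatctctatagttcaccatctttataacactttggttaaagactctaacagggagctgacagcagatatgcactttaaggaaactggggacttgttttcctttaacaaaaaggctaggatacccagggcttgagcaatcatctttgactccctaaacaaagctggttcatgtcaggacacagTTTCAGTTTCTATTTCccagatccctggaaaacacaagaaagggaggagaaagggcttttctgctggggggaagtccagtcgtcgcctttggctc
Gbp5: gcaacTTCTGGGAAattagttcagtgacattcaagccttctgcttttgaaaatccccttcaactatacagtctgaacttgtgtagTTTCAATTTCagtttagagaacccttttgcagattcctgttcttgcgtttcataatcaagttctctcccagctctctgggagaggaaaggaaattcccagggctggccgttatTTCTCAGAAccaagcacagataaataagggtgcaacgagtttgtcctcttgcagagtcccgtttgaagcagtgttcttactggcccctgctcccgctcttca
Gbp7: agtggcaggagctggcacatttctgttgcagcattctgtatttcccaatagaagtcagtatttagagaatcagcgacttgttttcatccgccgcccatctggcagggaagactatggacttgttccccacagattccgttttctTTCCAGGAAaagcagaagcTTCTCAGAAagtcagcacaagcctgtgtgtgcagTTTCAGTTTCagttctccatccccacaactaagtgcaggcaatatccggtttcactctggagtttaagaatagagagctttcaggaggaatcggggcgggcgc
Gbp2b: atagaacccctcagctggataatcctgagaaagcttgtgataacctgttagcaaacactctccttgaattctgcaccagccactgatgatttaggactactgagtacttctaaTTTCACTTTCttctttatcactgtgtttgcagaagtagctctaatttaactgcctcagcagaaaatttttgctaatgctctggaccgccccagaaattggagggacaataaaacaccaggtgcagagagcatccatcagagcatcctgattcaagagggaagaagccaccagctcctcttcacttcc

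All 5 genes held the response element core in a printed window, against 3.99% of the 27025 genes with a window and 3.44% of the 32851 windows. Counted from the start site, the match covered positions -59 to -50 in Gbp2, -53 to -44 in Gbp7, -137 to -128 in Gbp2b and -165 to -156 in Gbp5. Gbp3 held a pair of overlapping matches, seen in capitals as TTTCAGTTTCTATTTC, from -45 to -36 and from -39 to -30. A second Gbp3 window, at chr3:142560106-142560405, held neither motif. TTCNNNGAA was found in Gbp5 and Gbp7, with 2 matches each, against 9.55% of genes and 8.30% of windows, and overlapped no match of the first motif. These are matches of letters and say nothing of binding.

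Of the 11 Gbp rows, 9 read 2-fold or more above the wild type in the knockout and 0 read 2-fold or more below it. Among all 44170 rows, the same rule took 2.37% as higher and 1.47% as lower. By gene, using the row brightest on average, 6 of the 7 members were higher and 0 lower, against 2.48% and 1.82% of all named genes. Gbp5 was detected in the knockout alone, so its place in that count rests on the knockout value. Of the 5 member genes above the wild-type floor in that row, 5 were higher by 2-fold or more, against 5.04% of the 9859 genes above that floor. Because the row was chosen by its mean over both arrays, this filter is not free of the knockout values. In sorted cells measured in bulk, more cells of an expressing type and more RNA per cell cannot be told apart. The median log2 difference over all 7 members was 3.65.

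**Figure D1:**
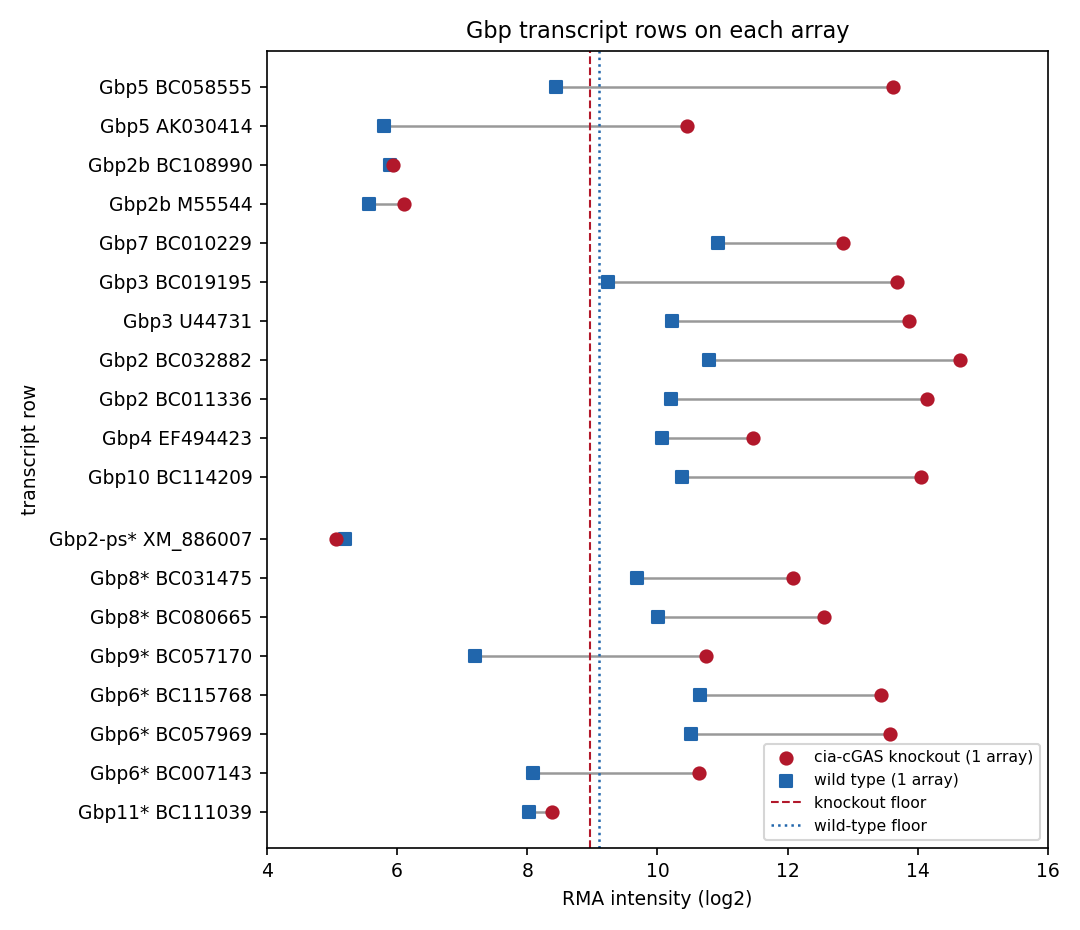
RMA intensity on the log2 scale of each Gbp transcript row on the cia-cGAS knockout array (circles) and the wild-type array (squares), with both detection floors as vertical lines. Rows marked with an asterisk carry another symbol in the files. The knockout circles of Gbp2, Gbp3, Gbp5 and Gbp10 lie furthest from their wild-type squares, and both Gbp2b rows stay left of the floors.

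Gbp2, which is prenylated and gathers on parasite vacuoles and bacteria, was measured by 2 rows. Row BC032882 (gene ID 14469, MM9 chr3:142283605-142300972) read an intensity of 25626 in the knockout and 1783 in the wild type, a 14.4-fold higher level. Row BC011336, almost the same span of the gene, read 18180 in the knockout and 1188 in the wild type, a 15.3-fold higher level. The log2 differences of the rows, 3.84 and 3.94, lay 0.09 apart. For comparison, rows of the same gene differed with a pooled SD of 0.37 over 2895 genes with several detected rows. That SD describes probes on the same arrays and is no replicate error.

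Gbp3, in the same cluster, also had 2 rows, and they agreed less well. Row U44731 (gene ID 55932, MM9 chr3:142223571-142236176) read 14929 in the knockout and 1193 in the wild type, a 12.5-fold higher level. Row BC019195 (chr3:142223015-142228407) read 13175 in the knockout and 605 in the wild type, a 21.8-fold higher level. Their log2 differences of 3.65 and 4.45 lay 0.80 apart. The wild-type value of BC019195 was close to the floor of 551. By size of the difference, BC019195 stood at place 12 among the 13999 rows detected on both arrays.

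Gbp5, a prenylated GBP known in mouse macrophages for promoting NLRP3 inflammasome assembly, had the largest difference of the 7 members in its brightest row. Row BC058555 (gene ID 229898, MM9 chr3:142159863-142185308) read 12603 in the knockout and 347 in the wild type. The wild-type value lay under its floor, so the level was at least 22.9-fold higher in the knockout. The dimmer row AK030414 (chr3:142159897-142185308) read 1407 in the knockout and 55.6 in the wild type, which was at least 2.55-fold higher. Gbp5 was thus on opposite sides of the floor on the 2 arrays in each of its rows.

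Gbp7 and Gbp4 were also higher in the knockout, by smaller folds. Gbp7, listed as Gbp6 in the files and known in mouse macrophages for bringing oxidase and autophagy proteins to vacuoles, had the single row BC010229 (gene ID 229900, MM9 chr3:142193333-142210016). It read 7365 in the knockout and 1946 in the wild type, a 3.78-fold higher level. Gbp4 had the single row EF494423 (gene ID 17472, MM9 chr5:105544785-105568571), with 2822 in the knockout and 1077 in the wild type, a 2.62-fold higher level. These rows stood at places 252 and 470 among the 13999 rows detected on both arrays. They are the detected members whose fold was under 4 in their brightest row.

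Gbp10 lies in the other Gbp cluster, on chromosome 5. Its row BC114209 (gene ID 626578, MM9 chr5:105645631-105668552) read 16908 in the knockout and 1325 in the wild type, a 12.8-fold higher level. Its log2 difference of 3.67 lay between those of the Gbp3 rows, so high folds were seen in each cluster.

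Gbp2b was the exception. This gene, among the first GBPs described in mice and called Gbp1 in the files, was under the floor on both arrays in both of its rows. Row BC108990 (gene ID 14468, MM9 chr3:142163517-142281813) read 61.5 in the knockout and 59.2 in the wild type. Row M55544 (chr3:142164225-142282140) read 69.1 in the knockout and 47.4 in the wild type. No fold is given for values under both floors, and the log2 differences of 0.06 and 0.54 lie in the range the arrays do not resolve. The files place these transcripts over 118 kb, across the spans of Gbp7 and Gbp3 and into Gbp5. The gene was not detectable at this sensitivity, which does not show that it was silent.

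The 5 family genes under other symbols gave a similar division. Gbp6, with gene ID 100702, was 6.89-fold higher in its brightest row BC115768, at 11109 in the knockout and 1611 in the wild type. Its other rows were 8.31-fold higher (BC057969) and at least 2.91-fold higher (BC007143). Gbp8 was 5.89-fold higher in its brightest row BC080665, at 6037 in the knockout and 1026 in the wild type, and 5.27-fold higher in BC031475. Gbp9, detected in the knockout alone, was at least 3.13-fold higher, at 1728 in the knockout and 146 in the wild type.

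Gbp11, which RefSeq classes as a transcribed pseudogene, read 334 in the knockout and 261 in the wild type, under both floors. The pseudogene Gbp2-ps read 33.4 in the knockout and 36.9 in the wild type, close to the control probes. Over the whole family of 12 genes, 9 therefore passed 2-fold upward in the knockout, 0 passed it downward, and 3 lay under both floors. The 3 undetected genes are Gbp2b and the 2 annotated pseudogenes.

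**Figure D2:**
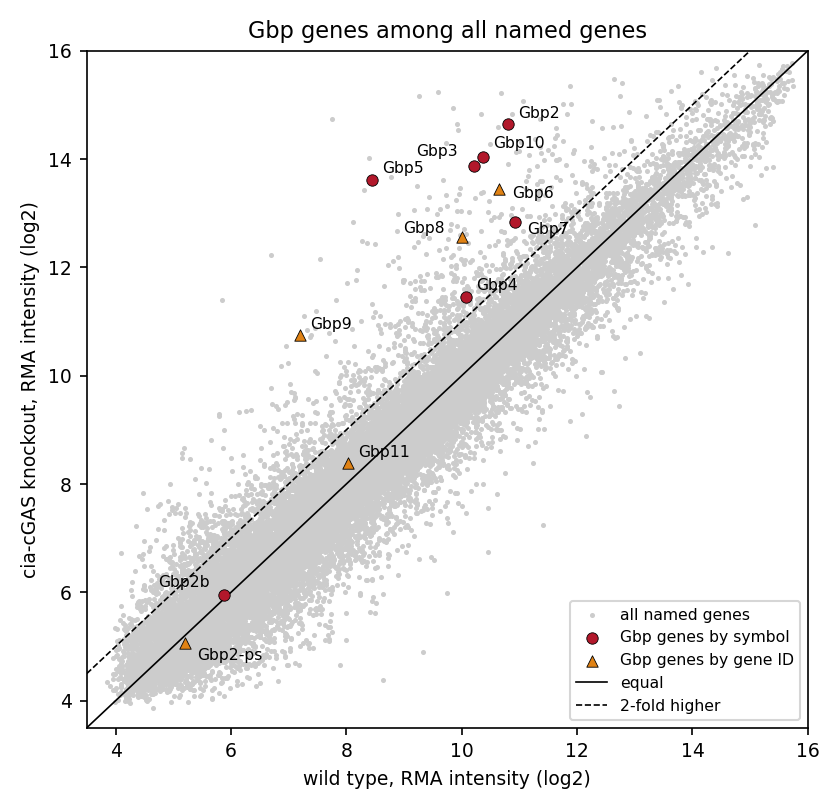
Log2 intensity of every named gene (brightest row) on the wild-type array (horizontal) and the cia-cGAS knockout array (vertical), with lines of equality and of a 2-fold higher level in the knockout. The 9 detected Gbp genes lie above the 2-fold line, from Gbp4 at a log2 difference of 1.39 to Gbp5 at a lower bound of 4.51 (plotted at its value under the wild-type floor), while Gbp2b, Gbp11 and Gbp2-ps lie near equality at low levels.

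GBPs are close paralogs, and their rows may share hybridisation. Probe sequences were not used here, so single members are uncertain within the family. Annotated spans overlap as well: the Gbp6 row BC057969 starts at the same MM9 base as the Gbp10 row, 105645631, and spans 77.1 kb up to 105722704. Whether the probes of these rows overlap was not examined. On chromosome 3, Gbp7 differed by 1.92 and Gbp3, the next gene along, by 3.65 and 4.45 on the log2 scale.

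The genes form 2 clusters, with higher levels in each. On chromosome 3, 4 of the 6 family genes passed 2-fold upward, with a median log2 difference of 3.75 over the 4 detected genes. On chromosome 5, 5 of 6 did so, with a median of 2.79 over the 5 detected genes, or 2.56 with Gbp9 at its lower bound. Whether the clusters differ was not tested. The 10 rows on chromosome 3 cover 173 kb of MM9 and the 9 rows on chromosome 5 cover 332 kb.

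No detected row of a gene beside the clusters passed 2-fold. Within 300 kb of a member row lay 8 other named genes with 13 rows, of which 0 passed 2-fold upward and 0 downward, close to the 2.37% and 1.47% of all rows. The 7 rows detected on both arrays differed by -0.57 to 0.70 on the log2 scale. The general transcription factor gene Gtf2b, whose row begins 127 kb from the last member row of the chromosome 3 cluster, read 14913 in the knockout and 12090 in the wild type, a log2 difference of 0.30. The 4 rows of the kinase gene Pkn2 differed by 0.52, -0.57, 0.70 and 0.09. On the other side, the detected row of Pdlim5, a PDZ and LIM domain protein, differed by 0.17. Next to the chromosome 5 cluster, Gm5870 read 664 in the knockout and 627 in the wild type. Kyat3, 9530052C20Rik, Zfp951 and 4930542N06Rik lay under both floors. Among the rows under both floors, 4930542N06Rik differed by -2.61 and the second row of Pdlim5 by 1.18 on the log2 scale, where the arrays do not resolve a fold.

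**Figure D3:**
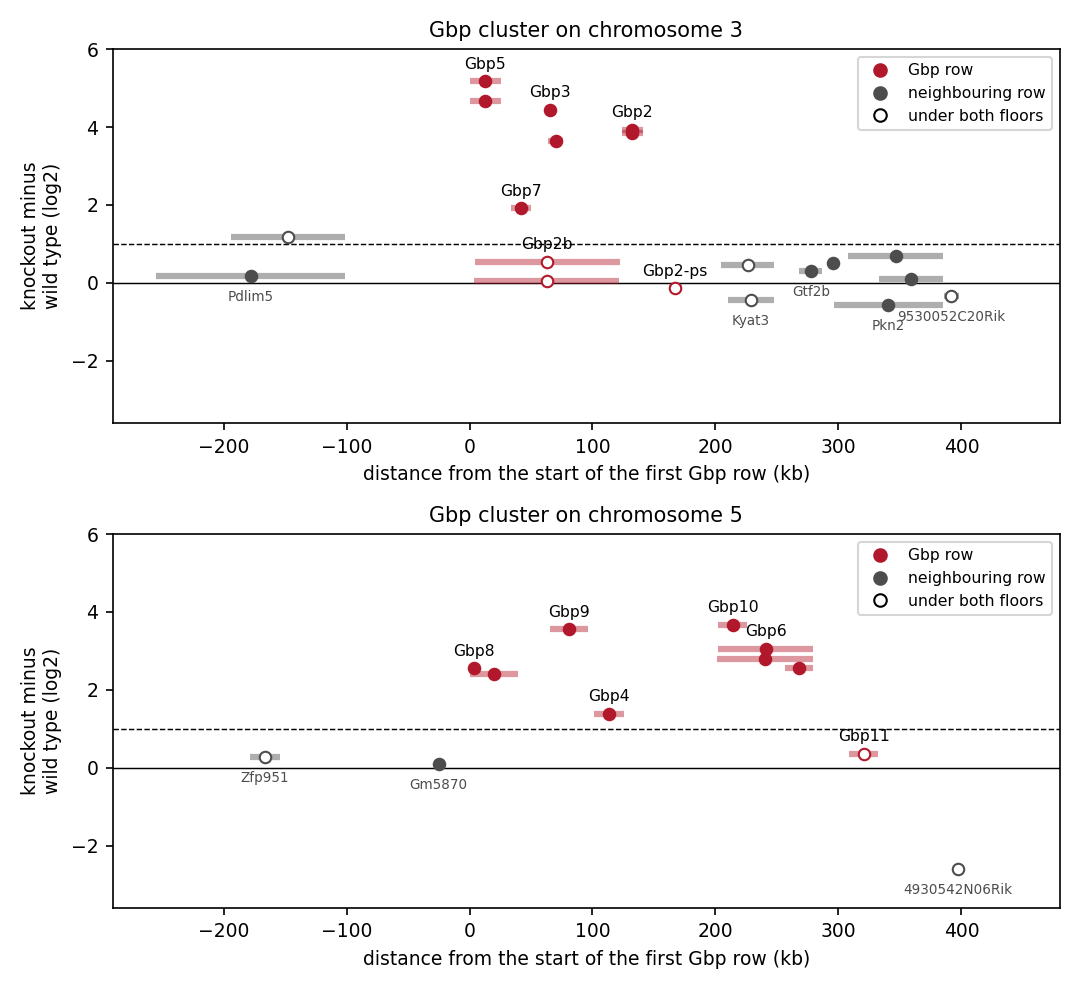
Log2 difference, knockout minus wild type, of each transcript row against its distance in kb from the start of the first Gbp row, for the clusters on chromosomes 3 and 5. Bars show the annotated span, open circles are rows under both floors, and the dashed line marks a 2-fold higher level. Gbp rows detected on both arrays lie from 1.39 to 4.45 (those of Gbp5 and Gbp9 and 1 of Gbp6, plotted at values under the wild-type floor, are lower bounds in the text), and detected neighbouring rows from -0.57 to 0.70, with open circles of neighbours reaching -2.61 and 1.18.

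Genes with roles around GBPs were grouped into 6 lists, to be read against the 2.48% of all named genes that passed 2-fold upward and the 1.82% that passed it downward. Immunity-related GTPases (IRGs), the other interferon-induced GTPases that mark and disrupt vacuoles in mice, had the highest median of the 6. Of 12 measured, 10 passed 2-fold upward, 0 passed it downward, and the median log2 difference was 2.44, or 2.11 with lower bounds where the wild-type value lay under its floor. Of the 7 above the wild-type floor, 7 were higher, against 5.04% of all genes above that floor. Gm12185, Gm5431 and 9930111J21Rik1 were detected in the knockout alone, so their place in the 10 rests on the knockout value. Gm12250, which encodes Irgb10, a partner of GBPs on bacteria, was 12.2-fold higher, at 10321 in the knockout and 849 in the wild type. Tgtp1 was 9.08-fold higher, and Irgm1, which restrains the other IRGs on the cell's own membranes, 6.27-fold. Igtp and Irgm2, which share that regulatory role, were 3.98-fold and 3.06-fold higher. The range of folds measured on both arrays, from 3.06 in Irgm2 to 12.2 in Gm12250, overlapped that of the GBPs.

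Of 17 measured genes of the wider dynamin superfamily, 2 passed 2-fold upward and 0 downward, and their median was 0.07. Those 2 were the interferon-induced antiviral genes Mx1, 23.6-fold higher, and Mx2, at least 23.7-fold higher. The atlastins, which shape the endoplasmic reticulum and are the nearest relatives of GBPs in the superfamily, differed by 0.07 (Atl1), 0.60 (Atl2) and 0.49 (Atl3). The mitochondrial fusion gene Mfn1 had the lowest difference, at -0.82.

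Among 18 measured genes of interferon signalling, 4 passed 2-fold upward and 0 downward, and the median was 0.35, or 0.29 with lower bounds. Stat2, a transcription factor that acts on the first motif shown above, was 6.88-fold higher. The kinase gene Jak2 was 2.80-fold higher, and Irf7, an interferon-induced transcription factor, at least 7.63-fold in its brightest row. The other Irf7 row, AK002830, was detected on both arrays, at 1483 in the knockout and 665 in the wild type, only 2.23-fold higher. Irf1, a factor that drives GBP transcription after interferon gamma, gave unlike rows. The brightest read 4326 in the knockout and 2635 in the wild type, 1.64-fold higher, whereas BC003821 was 2.01-fold and AK153514 at least 3.32-fold higher, so that its absence from the count rests on the brightest row. Irf9 differed by 0.46 in its brightest row. The receptor genes Ifngr1, Ifngr2, Ifnar1 and Ifnar2 differed by 0.38, 0.58, -0.10 and 0.10. The gene of interferon gamma itself, Ifng, lay under both floors, with 173 in the knockout and 142 in the wild type. Ifnb1 read 647 in the knockout and 70.1 in the wild type, at least 1.17-fold higher.

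Of 10 inflammasome genes that act with or after GBPs, 5 passed 2-fold upward and 0 downward, and the median was 0.91. Casp4, which encodes mouse caspase-11, the sensor of cytosolic lipopolysaccharide, was 15.5-fold higher, at 24554 in the knockout and 1585 in the wild type. Il1b, Casp1, Il18 and Casp8 were 7.37-fold, 5.91-fold, 2.84-fold and 2.15-fold higher. The value of Il18 is that of its brightest row, and its other row, near the floors, read 524 in the knockout and 527 in the wild type. The DNA sensor gene Aim2 differed by 0.55, the sensor gene Nlrp3 by 0.73 and the pore-forming gene Gsdmd by 0.30. Pycard, which encodes the adaptor ASC, lay under both floors.

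The lists for modification and placement of GBPs held 0 genes past 2-fold in either direction, a count close to the all-gene shares of 2.48% and 1.82% for lists this short. Of 6 measured genes of prenylation and CaaX processing, 4 were detected, and the median over all 6 was 0.00. Fnta, a subunit shared by the prenyl transferases, read 3040 in the knockout and 3026 in the wild type. Icmt and Rap1gds1 had the largest differences among the detected members, -0.41 and 0.36. The 10 genes of ATG8 conjugation, which helps to place GBPs and IRGs on vacuoles, also had a median of 0.00. Atg16l1, detected in the knockout alone, was at least 1.96-fold higher, and Gabarapl2 differed by 0.58.

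**Figure D4:**
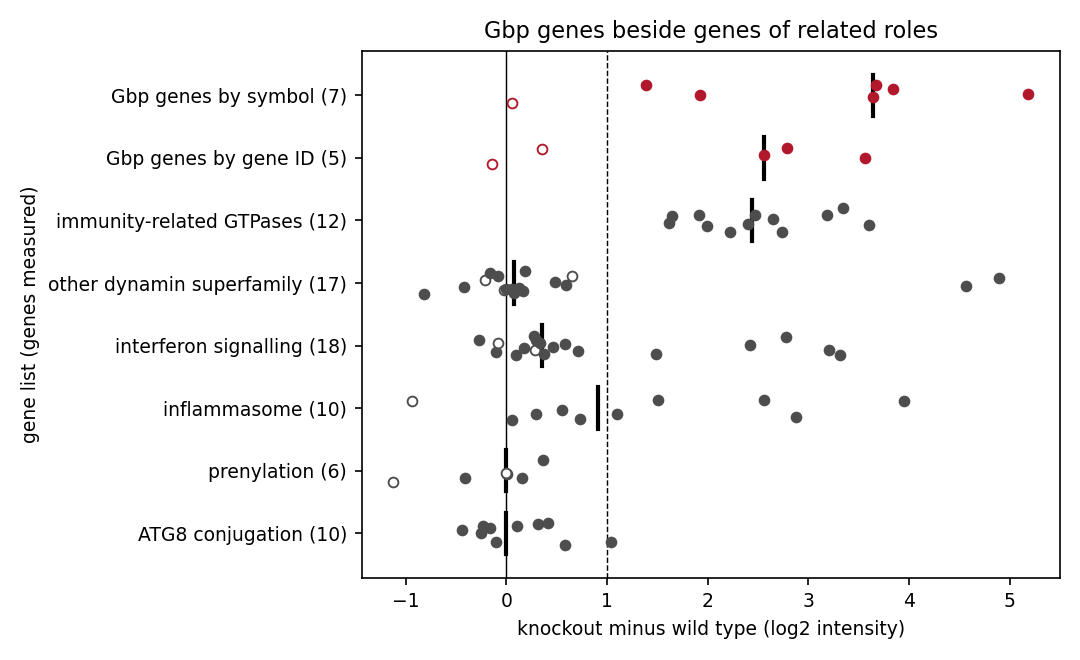
Log2 difference, knockout minus wild type, of each measured gene in the Gbp family and in 6 lists of related roles. Points are genes (open where under both floors, and at the measured value also where only the wild type lay under its floor), black bars are medians over all measured members, and the dashed line marks a 2-fold higher level. The Gbp and IRG genes lie mostly right of that line, and prenylation and ATG8 conjugation genes centre on 0.

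By the size of the log2 difference over the 2 arrays, the genes outside the family nearest to Gbp2 at 3.84 were AW112010 at 3.85, Ddx58 at 3.89 and Sppl2a at 3.80. Gbp3 at 3.65 and Gbp10 at 3.67 lay near each other, and outside the family the nearest were Slfn4 at 3.68 and Gm12250 at 3.60, followed by Slfn10-ps at 3.51 for Gbp3 and Sppl2a for Gbp10. For Gbp7 at 1.92 they were Zcchc2, Fpr1 and D16Ertd472e, and for Gbp4 at 1.39 they were Ppp3ca, Treml2 and Sp3. With 2 arrays this likeness is only a similar fold.

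GBPs are abundant in macrophages and other marrow cells, so markers of those cells were read on the same arrays, with the same all-gene shares of 2.48% higher and 1.82% lower. Of 14 monocyte and macrophage markers, 3 passed 2-fold upward in the knockout and 0 downward, and the summed intensity was 112655 in the knockout and 84539 in the wild type, a ratio of 1.33. The 3 were Ms4a6c, at least 3.51-fold, Ctss, 2.86-fold, and Fcgr1, at least 2.11-fold. Lyz2 alone read 56088 in the knockout and 54066 in the wild type, close to the brightest rows of the arrays, so it weighs heavily in both sums. Csf1r and Adgre1, which define macrophages, differed by 0.46 and 0.53 in their brightest rows (another Adgre1 row was 2.16-fold higher), Cd68 by -0.29, and Cx3cr1 lay under both floors.

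Of 12 neutrophil markers, 1 passed 2-fold upward and 0 downward, with summed intensities of 238687 in the knockout and 179810 in the wild type. That ratio was also 1.33, and Cebpe lay under both floors. The marker past 2-fold was Itgam, 2.78-fold higher. Just under the threshold lay Ly6g, 1.98-fold, Retnlg and Mmp8, each 1.83-fold, and S100a8, 1.79-fold higher. S100a9 differed by 0.02 and Mpo by -0.41 on the log2 scale, and the median over all 12 was 0.35. Of 10 B lineage markers, 6 passed 2-fold downward and 0 upward, with sums of 3963 in the knockout and 19756 in the wild type, and Cd79a and Igll1 lay under both floors. Of 11 erythroid markers, 3 passed 2-fold downward and 0 upward, with sums of 86467 in the knockout and 109089 in the wild type, and Klf1 and Epor lay under both floors. Most of each sum came from the globin genes. Hba-a1 read 38240 in the knockout and 43470 in the wild type, and Hbb-b1 37093 and 42878. In their brightest rows, the 3 lower markers were Ank1, 4.19-fold, Tfrc, 2.19-fold, and Sptb, at least 3.44-fold. T and NK markers, with 11 measured, and dendritic markers, with 8 measured, had 0 past 2-fold. Their sums were 6763 and 24846 in the knockout and 6432 and 22731 in the wild type, and Cd3d, Klrb1c, Eomes and Itgax lay under both floors. Of 8 endothelial and stromal markers, 1, Ibsp, passed 2-fold downward, with sums of 34794 in the knockout and 39977 in the wild type. The part of these cells in the Gbp differences was not tested.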

How the data were processed

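The data are 2 single-colour NimbleGen arrays, 1 of cia-cGAS knockout and 1 of wild-type LT-HSCs, grouped by the genotype label. The deposited intensity of each row is an RMA value on a linear scale (RMA per the submitters' processing notes, no version), and the transcripts carry MM9 coordinates per the file headers. RMA equalises the arrays, so differences are relative to other genes. A deposited score column, headed as a standard error, and the column of probe numbers entered no comparison. All values were taken to log2 without further normalization.

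Of 44170 transcript rows, 41886 had a gene ID, and 39057 of these were matched to a RefSeq table of GRCm38.p6 used for symbols alone. Members, gene lists and markers were chosen with earlier results of these data known. Every Gbp row is named, then list members past 2-fold or with the largest differences, all genes within 300 kb of a member row, and the 3 genes outside the family nearest in difference to each of the 5 members above both floors. Further list genes and markers (such as the atlastins, Irf1, Irf9, the receptors, Aim2, Nlrp3, Gsdmd, Pycard and Fnta) were named for their roles after their values were seen. Counts used a 2-fold threshold. Alternatives were other floors, loess centring (span 0.3), the mean of rows, folds of 1.5 and 3, the series-wide table and the wider family. Python 3.11.15 with numpy 2.4.6, pandas 2.3.3 and statsmodels 0.14.6 was used, and fold and floor calls were checked on simulated data. The number of arrays limits the precision. Some list genes are not measured under the names used here and were left out, and some genes are not reported here.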

Additional observations from a re-analysis of the deposited data

How the results depend on the processing

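No paired analysis was possible because each genotype has 1 array. The count of Gbp rows at least 2-fold higher, 9, was 9 with a floor at the row median, with no floor, with loess centring, with a fold of 1.5 and in the series-wide table. It was 8 with the floor at the 99th percentile of receptor rows and 7 at a fold of 3. Adding the Gbp genes that carry other symbols, an alternative chosen after seeing the data, gave 15 rows and 9 genes, since more rows were counted. The count of Gbp genes, 6, was 5 at a fold of 3 and 6 under every other setting run apart from that addition. The median log2 difference over the 6 detected members was 3.66. It ran from 3.56 with the added genes (2.79 with Gbp5 and Gbp9 at their lower bounds) to 3.78 with rows averaged, and the mean in its place was 3.28. Once the wild-type values were raised to the floor, the log2 differences of the Gbp5 rows were 4.51 and 1.35. Of 31 recomputed values of single-row differences, the other 29 moved by less than 0.37, but many of these could not move. The series-wide table holds the same values to within 1.28e-06 on the log2 scale. Raising values to the floor leaves the 7 member rows above both floors unchanged. Loess centring, which could act on every row, moved member rows by at most 0.04. The count of IRG genes, 10, was 8 with the stricter floor. No result changed direction under the alternatives run. Low rows limit what Gbp2b, Gbp5 and Gbp9 can show, since their wild-type values lie under the floor.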

Other observations

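The search for the response element core (GAAA, 2 bases of any kind, GAAA) was also made in the promoter windows of the genes around the family. It was found in 7 of the 10 measured IRG genes with a window, Gm12250 and Irgm1 holding 2 matches each, and in 1 of the 7 genes beside the Gbp clusters, Pdlim5. Among all genes at least 2-fold higher in the knockout, 75 of the 464 with a window held it, or 16.2%, against 3.99% of all genes with a window. TTCNNNGAA was found in 5 of the 10 IRG genes and in 13.4% of the genes at least 2-fold higher, against 9.55% of all genes. Gbp2b, under the floor on both arrays, held the same 10 bases, TTTCACTTTC, as Gbp2, which was 14.4-fold higher. The match covered positions -59 to -50 from the start site in Gbp2 and -137 to -128 in Gbp2b. The genes at least 2-fold higher were chosen on these arrays and include Gbp and IRG genes, so their share is not independent of those genes. The all-gene shares also cover genes not measured here. These matches are descriptions of sequence, and no test of the shares was run.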
